A study of Marchantia polymorpha subsp. ruderalis with 24 samples.

Results

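The step from 42 h to 48 h in constant light was compared in the thallus of the liverwort Marchantia polymorpha, using the 3 libraries labelled 42 h and the 3 labelled 48 h out of 24. All plants were of the male laboratory accession Takaragaike (Tak)-1, and the labels name no mutant, transgene or other treatment. They had been raised from gemmae, the clonal propagules of the liverwort, on agar with Gamborg's B5 medium at 20 °C in days of 12 h light and 12 h dark, and were then moved to constant light. Tissue labelled young thallus, the flat green body of the plant, was taken every 6 h from 24 h after the move, and messenger RNA was sequenced as 3 replicate libraries a time. The labels give neither the age of the plants nor the hour of the light-dark day at which they were moved, and the extraction protocol speaks of gemmae where the tissue label says thallus. They do not say whether replicates were separate cultures, so p-values cover only how far these samples vary, and that variation may be technical.

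A circadian clock keeps a daily rhythm of gene expression going when light and temperature no longer change. In land plants it is built of transcription factors and other nuclear proteins that repress or activate each other in turn, among them pseudo-response regulators and the evening complex of ELF3, ELF4 and LUX. Light reaches it through photoreceptors and through proteins such as DET1 and COP1, which in flowering plants hold back light responses in the dark. The title of the series names DE-ETIOLATED1 (DET1) as a gene of the Marchantia clock, and the 6 h step asks which messenger RNAs differ between neighbouring times of the free-running day.

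The 6 libraries held 19271096 to 27061982 counts. Levels are given as CPM, counts scaled to a common library size with a correction for library composition, and a change as the log2 ratio of 48 h to 42 h with its standard error (SE). Across genes, libraries of the same time correlated at r = 0.9841 to 0.9904 for 42 h and 0.9727 to 0.9846 for 48 h, and no pair of them agreed within counting noise (chi-square per degree of freedom of 12.3 or more). In replicate 1 of 48 h, 169 of 11918 genes lay more than 2 fold above the mean log2 level of the other 48 h libraries. In replicate 2 of 48 h, 190 genes lay more than 2 fold below the mean of the others. Replicate 2 of 42 h had 158 of 11810 genes as far below the mean of the other 42 h libraries. A single V chromosome gene, MpVg01240, took 0.301% to 0.86% of the counts at 42 h and 1.16% to 2.39% at 48 h. Its own change was not called (log2 1.25 ± 0.64, edgeR adjusted p = 0.392), it was chosen after its values were seen, and its part in the results was not tested. The summed levels of most lists of organ and cell type markers overlapped between the times. Rhizoid genes summed to 268 to 273 CPM at 42 h and 271 to 282 CPM at 48 h, oil body cell genes to 112 to 126 and 103 to 122 CPM, and the air pore gene to 59.7 to 70 and 59.8 to 75.2 CPM. The 6 genes of gemma cups summed to 134 to 141 CPM at 42 h and 148 to 183 CPM at 48 h, with no overlap. That gap depended on 1 of them, MpKAI2B, the called member, which is also on the karrikin list. It had 23.3, 25 and 30.7 CPM at 42 h and 53.5, 49.6 and 40 CPM at 48 h. Without MpKAI2B the sums overlapped between the times. The sperm genes MpPRM and MpLC7 had at most 2 counts in any of these libraries, while the list of sexual organs summed to 230 to 264 and 218 to 248 CPM. In RNA from whole tissue, fewer cells of a type and less RNA per cell cannot be told apart.

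More genes rose than fell between 42 h and 48 h. The genes named next were ranked among called genes with a symbol, at least 5 CPM and non-overlapping libraries. Those that rose most included the B-box gene MpBBX1, the sigma factor gene MpSIG5, the dirigent gene MpDIR27 and the pentatricopeptide repeat gene MpPPR_73. Those that fell most included the lipoxygenase genes MpLOX16 and MpLOX14. In all, 388 of 14414 tested genes (2.69%) were called higher at 48 h and 111 (0.77%) lower, together 499 (3.46%), at an edgeR adjusted p under 0.05. The changes were mostly modest, with a median of 1.53 fold among the genes that rose and 1.47 fold among those that fell. At least 2 fold was reached by 68 genes that rose and 20 that fell, and at least 4 fold by 9 and 5. All 3 libraries of 48 h lay above all 3 of 42 h for 1203 tested genes (8.35%) and below them for 1034 (7.17%), and 496 of the 499 called genes were of these kinds. Of the called genes 108 carried a symbol, 77 higher and 31 lower.

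The number of called genes varied between fits. A fit to the 6 libraries alone, with 13661 genes tested, called 128 genes (109 higher and 19 lower), of which 126 were among the 499. Leaving out replicate 3 of 42 h gave 287 genes and leaving out replicate 3 of 48 h gave 326, while leaving out replicate 2 of 42 h gave 581. Without replicate 1 of 48 h 438 genes were called, and without replicate 2 of 48 h 361.

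**Figure D1:**
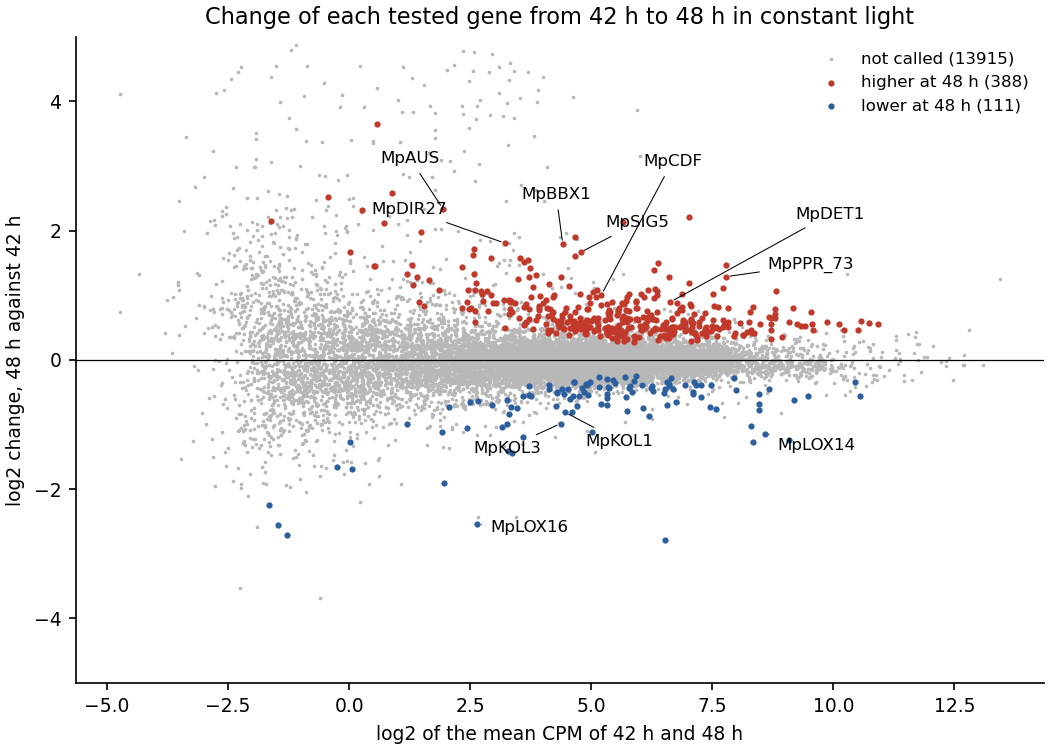
Change of each tested gene from 42 h to 48 h. The x axis is the log2 of the mean CPM of the 2 times and the y axis the log2 change, 48 h against 42 h, with the 388 genes called higher in red, the 111 called lower in blue and all others in grey. Red points outnumber blue ones, and 43 uncalled genes with a change beyond 5 on the log2 scale lie outside the plotted range.

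Light signalling genes included rises with small adjusted p. Of 13 tested members, MpBBX1, MpDET1 and MpCOP1 rose, and MpBBX6 fell, where 3.46% of all tested genes were called. The median change of the list was 0.12 on the log2 scale, against -0.02 over all tested genes. MpBBX1 (Mp5g05940) encodes a B-box zinc finger protein, a family that acts in light signalling in flowering plants. Its level was 10.6, 8.18 and 9.94 CPM in the 3 libraries of 42 h and 27.8, 35.4 and 35.9 CPM in those of 48 h. The groups were far apart, and the change was 1.79 ± 0.11 (SE) on the log2 scale (adjusted p = 2.8e-09). MpDET1 (Mp8g00970), the homologue of the DET1 repressor of light responses, had 69.5, 64.2 and 74.8 CPM at 42 h and 117, 125 and 145 CPM at 48 h. Every library of 48 h was above every library of 42 h, with a change of 0.89 ± 0.10 (adjusted p = 1.25e-05).

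MpCOP1 (Mp5g12010), which encodes the ubiquitin ligase COP1, had 50.7, 59.7 and 57 CPM at 42 h and 70.7, 76.5 and 82.6 CPM at 48 h. The rise of 0.46 ± 0.09 was called with all libraries in the fit (adjusted p = 0.003) and not in the fit to the 6 libraries (adjusted p = 0.105). MpBBX6 (Mp2g16350), a further B-box gene, had 14.3, 12.9 and 11 CPM at 42 h and 8.8, 6.09 and 8.04 CPM at 48 h. It was the member with a called fall, of -0.73 ± 0.20 (adjusted p = 0.0387), and that call was lost in the fit to the 6 libraries (adjusted p = 0.161) and without replicate 1 or 2 of 42 h or replicate 2 or 3 of 48 h (adjusted p = 0.158, 0.0712, 0.169 and 0.0894). The partners of DET1 and COP1 in flowering plants were not called. Their changes were -0.06 ± 0.08 for MpDDB1, 0.08 ± 0.15 for MpCOP10 and 0.09 ± 0.10 for MpSPA1. The B-box genes MpBBX2, MpBBX3, MpBBX4 and MpBBX5 changed by 0.37 ± 0.37, -0.04 ± 0.12, 0.24 ± 0.09 and 0.12 ± 0.12, also uncalled. Neither MpRUP, a repressor of the ultraviolet-B receptor (0.26 ± 0.11), nor the phytochrome-interacting factor gene MpBHLH6 (0.05 ± 0.16) passed the test.

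**Figure D2:**
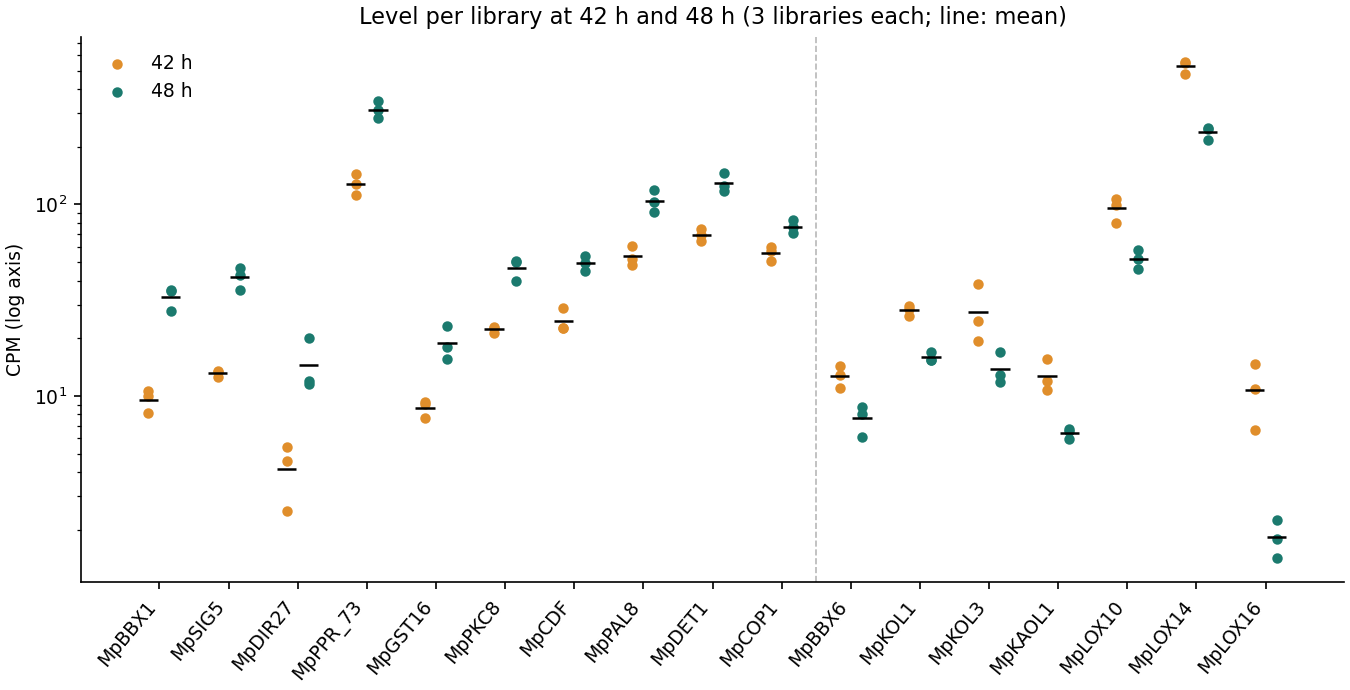
Level of 17 named genes in each library of 42 h (orange) and 48 h (green), in CPM on a log axis, with black lines at the means of 3 libraries. Genes left of the dashed line were called higher and those right of it lower at 48 h, and in each of them the libraries of the 2 times do not overlap.

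Of the 8 core clock genes 0 passed the test between these times. With 3.46% of all tested genes called, a list of this size says little by such a count, and the values are given as a description. The pseudo-response regulator gene MpPRR (Mp2g16560), a repressor gene of the clock, had 56.4, 62.9 and 62.2 CPM at 42 h and 62.9, 86.8 and 62.8 CPM at 48 h. The groups overlapped, and the change was 0.23 ± 0.14 (adjusted p = 0.501). Both times lay at the bottom of its course, with means of 226 ± 11.7 CPM (SD, n = 3) at 36 h and 210 ± 9.78 CPM at 54 h on either side. The other pseudo-response regulator gene, MpTOC1, changed by -0.13 ± 0.13 (adjusted p = 0.726). For the evening complex the values were -0.01 ± 0.12 for MpELF3, 0.03 ± 0.14 for MpELF4 and 0.02 ± 0.10 for the LUX homologue MpGARP7. MpGI, the GIGANTEA homologue, changed by -0.06 ± 0.07, the blue-light sensing F-box gene MpFKF by 0.08 ± 0.09 and the REVEILLE-type gene Mp1R-MYB11 by -0.11 ± 0.14. An adjusted p above the threshold does not show that these levels were equal.

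Among the photoreceptor genes, 0 of 4 were called. MpPHOT, the blue-light receptor phototropin, was nearest, with 211, 246 and 223 CPM at 42 h and 270, 291 and 288 CPM at 48 h. Its libraries did not overlap, and the change of 0.32 ± 0.10 missed the threshold in edgeR (adjusted p = 0.0956) but passed it in DESeq2 (adjusted p = 0.0298). The phytochrome gene MpPHY changed by 0.31 ± 0.13 (adjusted p = 0.252), also without overlap. The cryptochrome gene MpCRY (-0.06 ± 0.11) and the ultraviolet-B receptor gene MpUVR8 (0.05 ± 0.09) had overlapping libraries.

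A sigma factor gene and a pentatricopeptide repeat gene rose together with MpBBX1. MpSIG5 (Mp3g02240) encodes a sigma factor of the plastid RNA polymerase, which in Arabidopsis carries light and clock signals to chloroplast genes. It had 13.5, 12.6 and 13.4 CPM at 42 h and 35.9, 46.7 and 42.7 CPM at 48 h. The 42 h libraries were nearly equal and all 3 of 48 h were well above them, with a change of 1.66 ± 0.15 (adjusted p = 3.34e-07). MpPPR_73 (Mp8g16250) belongs to the pentatricopeptide repeat family, RNA-binding proteins that act mostly on organelle transcripts. It rose from 112, 144 and 128 CPM to 281, 346 and 311 CPM, without overlap, by 1.29 ± 0.14 (adjusted p = 3.64e-06). The rise of the family member MpPPR_44 (Mp7g09450) was 0.70 ± 0.17 (adjusted p = 0.0191) and was lost in the fit to the 6 libraries (adjusted p = 0.171) and without replicate 1 or 3 of 42 h or replicate 2 or 3 of 48 h (adjusted p = 0.123, 0.133, 0.101 and 0.0651). These were 2 of 72 tested members of the family, a share near the 2.69% called higher over all tested genes, with a list median of -0.03. The peroxidase gene MpPOD169 (Mp8g16260) rose by 1.44 ± 0.30 (adjusted p = 0.00737). It has the identifier next to MpPPR_73 and a far lower count, and whether these genes share reads was not tested. The call of MpPOD169 was lost in the fit to the 6 libraries (adjusted p = 0.0745) and without replicate 1 of 42 h (adjusted p = 0.0534).

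Regulatory genes that rose included a Dof factor and a hormone activation gene. MpCDF (Mp1g18540) encodes a Dof transcription factor of the CYCLING DOF FACTOR type, which in Arabidopsis acts in day-length control of flowering. Its level was 28.7, 22.5 and 22.6 CPM at 42 h and 45.1, 49.4 and 53.6 CPM at 48 h. The times did not overlap, and the level doubled, with a change of 1.00 ± 0.16 (adjusted p = 0.000597). MpLOG (Mp1g00270), a gene of the family that activates cytokinins, had 55.6, 49.2 and 54.1 CPM at 42 h and 86, 74 and 68.7 CPM at 48 h (0.52 ± 0.11, adjusted p = 0.00969). MpKAI2B (Mp2g04930), a homologue of the karrikin receptor, rose by 0.86 ± 0.20 (adjusted p = 0.0182), and MpSMR (Mp1g14080), of the SIAMESE-related inhibitors of the cell cycle, by 0.93 ± 0.14 (adjusted p = 0.000248). With replicate numbers as a block over the 6 libraries MpSMR was not called (adjusted p = 0.0668). The calls of MpLOG and MpKAI2B were lost without replicate 1 of 48 h (adjusted p = 0.0668 and 0.077). MpKAI2B was also lost without replicate 1 or 2 of 42 h or replicate 2 of 48 h (adjusted p = 0.0949, 0.0551 and 0.0621), and MpLOG in the fit to the 6 libraries (adjusted p = 0.0759).

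Members of other transcription factor families were called singly or in pairs, where 3.46% of all tested genes were called. For lists of these sizes such counts say little. The bZIP list had 2 of 13 called, MpBZIP3 (Mp8g03820, 0.43 ± 0.08, adjusted p = 0.00304) and MpBZIP9 (Mp6g03920, 0.63 ± 0.15, adjusted p = 0.0196). MpNAC7 (Mp6g02620, 1 of 9 NAC genes) rose by 0.58 ± 0.13, MpR2R3-MYB4 (Mp3g02830, 1 of 14 R2R3-MYB genes) by 0.34 ± 0.08 and MpBHLH27 (Mp1g19210, 1 of 37 bHLH genes) by 0.29 ± 0.07, at adjusted p of 0.0115, 0.0199 and 0.03. MpERF2 (Mp7g13760), 1 of 19 AP2/ERF genes, fell from 39.4, 26.8 and 30.6 CPM to 20.8, 21.3 and 16.9 CPM (-0.71 ± 0.16, adjusted p = 0.0133). In the fit to the 6 libraries none of these 6 passed, with adjusted p from 0.0641 for MpNAC7 to 0.268 for MpBHLH27. All but MpBZIP3 were also lost without replicate 1 of 42 h (adjusted p from 0.0635 for MpNAC7 to 0.157 for MpBHLH27). The losses included replicate 3 of 42 h and replicate 2 of 48 h for MpBZIP9, MpNAC7, MpR2R3-MYB4 and MpBHLH27, and replicate 3 of 48 h for MpERF2 and MpR2R3-MYB4. No WRKY (0 of 12), MYB-related (0 of 20), GARP (0 of 8) or homeodomain gene (0 of 7) was called.

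Phenylpropanoid and flavonoid genes, which turn phenylalanine into phenolic compounds, had 4 called rises and no called fall among 40 tested members, beside 2.69% called higher and 0.77% called lower over all tested genes. The median change of the list was 0.18. MpPAL8 (Mp4g10060) encodes phenylalanine ammonia-lyase, the entry enzyme of the pathway. It had 60.3, 48.2 and 51.9 CPM at 42 h and 103, 119 and 90.8 CPM at 48 h. The lowest 48 h library was well above the highest of 42 h, and the change was 0.96 ± 0.21 (adjusted p = 0.00891). MpC4H1 (Mp6g00020), for cinnamate 4-hydroxylase, the enzyme that follows, rose from 205, 153 and 189 CPM to 265, 251 and 306 CPM (0.59 ± 0.09, adjusted p = 0.000551). MpAUS (Mp2g05850), for aureusidin synthase, which in Marchantia makes the precursor of red auronidin pigments, had 1.46, 0.25 and 2.11 CPM at 42 h and 7.88, 5.99 and 5.26 CPM at 48 h. It was low at both times, without overlap, and rose by 2.34 ± 0.48 (adjusted p = 0.00589). The chalcone synthase family gene MpPKS/CHS20 (Mp7g14890), outside the naming rule, rose by 0.68 ± 0.17 (adjusted p = 0.023). In the fit to the 6 libraries 1 of the 4 calls was left, that of MpPAL8, while MpC4H1 and MpAUS had adjusted p of 0.0901 and 0.112.

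Dirigent proteins, which steer the coupling of phenolic radicals, had calls in both directions, with 2 of 40 members higher and 2 lower (2.69% and 0.77% over all tested genes). MpDIR27 (Mp5g00590) rose from 4.58, 2.5 and 5.38 CPM to 20.1, 11.9 and 11.5 CPM (1.81 ± 0.32, adjusted p = 0.00166). MpDIR17 (Mp7g06220) fell from 435, 503 and 407 CPM to 249, 253 and 279 CPM (-0.78 ± 0.11, adjusted p = 0.000129). In both genes the times were clearly apart. MpDIR22 (Mp7g04240, 1.08 ± 0.24, adjusted p = 0.00983) and MpDIR5 (Mp8g07540, -1.12 ± 0.25, adjusted p = 0.0105) were called with all libraries but not in the fit to the 6 (adjusted p = 0.081 and 0.116). MpDIR22 was also lost without replicate 1 or 3 of 42 h or replicate 3 of 48 h (adjusted p = 0.0562, 0.0691 and 0.0549), and MpDIR5 without replicate 1 of 42 h or replicate 2 of 48 h (adjusted p = 0.0987 and 0.0709).

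Genes with a polyphenol oxidase (PPO) symbol, for copper enzymes that oxidise phenols, had 3 called falls and no called rise among 42. Over all tested genes 0.77% were called lower and 2.69% higher. Related enzymes under other symbols, such as MpAUS, were not on this list. MpPPO42 (Mp5g19980), the most abundant of the 3, had 719, 689 and 718 CPM at 42 h and 443, 455 and 479 CPM at 48 h. The libraries within each time were close to one another and the times far apart (-0.63 ± 0.09, adjusted p = 0.000129). MpPPO55 (Mp6g17910) fell by 0.71 ± 0.13 (log2, adjusted p = 0.003) and MpPPO14 (Mp6g19030) by 0.56 ± 0.15 (adjusted p = 0.0466). With replicate numbers as a block over the 6 libraries MpPPO55 was not called (adjusted p = 0.0514). The call of MpPPO14 was lost in the fit to the 6 libraries (adjusted p = 0.164), without any single library but replicate 3 of 48 h (adjusted p from 0.0736 to 0.198) and with other scaling factors (RLE, adjusted p = 0.057). Class III peroxidases, which are secreted and act on cell walls, had 2 rises and 1 fall called among 119, a share below the 3.46% of all tested genes. Of the 119, 31 had a positive change, beside 6748 of all 14414 tested genes. Beside MpPOD169 these were MpPOD6 (Mp1g27630, 0.89 ± 0.25, adjusted p = 0.0473) and MpPOD160 (Mp7g19380, -1.90 ± 0.48, adjusted p = 0.0257). Both were uncalled in the fit to the 6 libraries (adjusted p = 0.301 and 0.0887), and on leaving out replicate 1 or 3 of 42 h or replicate 1 or 2 of 48 h (adjusted p of 0.0793 to 0.26 for MpPOD6 and 0.0512 to 0.191 for MpPOD160).

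Among called genes with a symbol, at least 5 CPM and non-overlapping libraries, the largest falls were those of the lipoxygenase genes MpLOX16 and MpLOX14. Lipoxygenases add oxygen to polyunsaturated fatty acids, the opening step to jasmonate-type signals and other oxylipins. In the jasmonate and oxylipin list 3 of 17 members fell and none rose, beside 0.77% called lower over all tested genes. A positive change was found in 3 of the 17, beside 6748 of the 14414 tested genes, and the list median was -0.22. MpLOX14 (Mp8g12930) had 479, 557 and 547 CPM at 42 h and 252, 217 and 248 CPM at 48 h. The times were far apart, with a change of -1.14 ± 0.12 (adjusted p = 2.04e-06). MpLOX16 (Mp2g16000) had 6.6, 14.6 and 10.9 CPM at 42 h and 1.43, 1.79 and 2.25 CPM at 48 h. Even its lowest 42 h library was above all of 48 h (-2.54 ± 0.38, adjusted p = 0.000232). MpLOX10 (Mp8g09050) fell from 107, 80.1 and 98.9 CPM to 46.2, 52 and 57.5 CPM (-0.87 ± 0.17, adjusted p = 0.00425). MpCOI1 (0.16 ± 0.09), the homologue of the jasmonate receptor gene of flowering plants, and the repressor gene MpJAZ (-0.16 ± 0.11) were not called. Without replicate 3 of 48 h, 5 members of the list were called.

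Some genes of gibberellin-related diterpenoids also fell. Marchantia makes compounds from ent-kaurene through oxidases like those of gibberellin synthesis in flowering plants. Of 7 tested members 4 fell, 3 were not called and none rose, where 0.77% of all tested genes were called lower. The median change was -0.81, and their summed level went from 100, 123 and 103 CPM to 68.8, 69 and 69.1 CPM. MpKOL1 (Mp3g18320), an ent-kaurene oxidase-like gene, had 26.1, 29.4 and 28.4 CPM at 42 h and 15.4, 17 and 15.4 CPM at 48 h. The times were clearly apart, with a change of -0.81 ± 0.13 (adjusted p = 0.000553). MpKOL3 (Mp2g01940) of the same type had 19.4, 38.3 and 24.7 CPM and then 11.8, 12.8 and 16.9 CPM (-0.99 ± 0.20, adjusted p = 0.00604).

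The ent-kaurenoic acid oxidase-like genes MpKAOL1 (Mp4g23680) and MpKAOL2 (Mp1g25410) fell by 1.00 ± 0.17 and 1.05 ± 0.28 (adjusted p = 0.000838 and 0.0375). MpKOL2 (-0.35 ± 0.16), whose identifier is next to MpKOL3, the DELLA gene MpDELLA (-0.13 ± 0.18) and MpKAOL3 (0.00 ± 0.24) were not called. In the fit to the 6 libraries only MpKOL1 of the 7 stayed called, while MpKOL3, MpKAOL1 and MpKAOL2 had adjusted p of 0.141, 0.0615 and 0.267. MpKAOL2 was also lost without replicate 1 of 42 h (adjusted p = 0.216) and without replicate 2 or 3 of 48 h (adjusted p = 0.157 and 0.183).

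Further genes kept their calls in every alternative fit. MpGST16 (Mp2g02670), a glutathione S-transferase gene, rose from 7.69, 9.32 and 9.04 CPM to 15.6, 23.3 and 17.9 CPM (1.12 ± 0.15, adjusted p = 9.73e-05). MpPKC8 (Mp4g06770) had 21.4, 22.8 and 22.5 CPM at 42 h and 39.6, 50.3 and 50.4 CPM at 48 h (1.07 ± 0.11, adjusted p = 2.08e-06). MpEXL1 (Mp7g19250) went from 63.2, 69.7 and 68.9 CPM to 37.4, 44 and 35.4 CPM (-0.79 ± 0.16, adjusted p = 0.00422), and its neighbour in identifier order, MpEXL3, also fell (-0.68). The libraries of the times did not overlap in any of these genes.

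Larger changes still were found in genes without a symbol. Mp1g10620 rose from 37.5, 51.8 and 48.6 CPM to 186, 240 and 211 CPM (2.21 ± 0.15, adjusted p = 1.11e-08), and Mp5g14220 from 17.2, 19.9 and 19 CPM to 69.7, 97.3 and 79.3 CPM (2.13 ± 0.19, adjusted p = 3.78e-07). Mp3g24880 fell from 125, 231 and 122 CPM to 22.3, 32.4 and 15.2 CPM (-2.78 ± 0.35, adjusted p = 3.17e-05). Mp2g06690 fell by 1.44 ± 0.31 (adjusted p = 0.00825), a call lost in the fit to the 6 libraries (adjusted p = 0.109), without replicate 2 of 42 h (adjusted p = 0.0516) and without replicate 3 of 48 h (adjusted p = 0.0652). With smaller changes but small p, Mp5g08580 (1.29 ± 0.10), Mp4g06660 (1.1 ± 0.08) and Mp5g12930 (1.07 ± 0.08) rose, and Mp1g09490 (-1.02 ± 0.10), Mp6g10490 (-0.72 ± 0.09) and Mp1g22640 (-0.52 ± 0.07) fell. These 6 were picked by small p and by a call in the same direction for 24 h against 66 h, so that agreement is no finding. Mp1g22640 was not called with replicate numbers as a block over the 6 libraries (adjusted p = 0.0575). Genes without a symbol below 5 CPM were not among those named, and some of them changed more.

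Called with all libraries but lost in the fit to the 6 were also MpEXL9 (Mp7g05020, 0.98 ± 0.24, adjusted p = 0.02 and then 0.133) and the tubulin gene MpTUB2 (Mp2g09390, -0.28 ± 0.08, adjusted p = 0.0392 and then 0.28). The same held for the resistance-type gene MpNBS-LRR15 (Mp5g08960, -0.84 ± 0.22, adjusted p = 0.0288 and then 0.0902), for the cytochrome P450 gene MpCYP824A1 (Mp5g10800, -0.75 ± 0.12, adjusted p = 0.000407 and then 0.0623) and for the receptor kinase gene MpRLK-Pelle_L-LEC24 (Mp5g15160, -0.74 ± 0.20, adjusted p = 0.0375 and then 0.234). The receptor kinase gene MpRLK-Pelle_SD-2b1 (Mp1g25080) rose by 0.79 ± 0.18 (adjusted p = 0.0145) and was lost without replicate 2 of either time (adjusted p = 0.0536 and 0.0654). On leaving out single libraries, MpNBS-LRR15 was lost without any but replicate 2 of 42 h (adjusted p from 0.0663 to 0.142) and MpTUB2 without any but that replicate (adjusted p from 0.0571 to 0.174). MpEXL9 was lost without replicate 2 or 3 of 42 h or replicate 1 of 48 h (adjusted p = 0.0858, 0.0835 and 0.0826), and MpRLK-Pelle_L-LEC24 without replicate 3 of 42 h or any of 48 h (adjusted p from 0.0809 to 0.229).

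Abscisic acid and drought genes shifted upward with few calls, and the size of the shift varied with single libraries. Of 71 tested members 57 had a positive change and the median was 1.18, yet 2 were called (2.69% higher over all tested genes), MpABA1 and MpLEA-like49. MpABA1 (Mp2g00670), for zeaxanthin epoxidase of abscisic acid synthesis, had 133, 153 and 133 CPM at 42 h and 169, 199 and 192 CPM at 48 h (0.41 ± 0.11, adjusted p = 0.0284), and was uncalled in the fit to the 6 libraries (adjusted p = 0.142) and without replicate 1 or 3 of 42 h or replicate 2 or 3 of 48 h (adjusted p from 0.098 to 0.144). Most of the list are genes of late embryogenesis abundant (LEA) proteins and dehydrins, which protect cells against drying. The median level of the 63 tested LEA and dehydrin genes was 1.38, 1.00 and 1.59 CPM in the libraries of 42 h and 19.4, 0.473 and 5.43 CPM in replicates 1, 2 and 3 of 48 h. The 48 h libraries thus lay on both sides of those of 42 h, with the highest value in replicate 1.

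MpLEAL1 (Mp4g09300) had 4.13, 9.82 and 9.77 CPM at 42 h and 291, 3.57 and 53.6 CPM at 48 h, and its change of 3.87 ± 1.42 was not called (adjusted p = 0.171). The dehydrin gene MpDHN1 (Mp6g07540) had 0.486, 1.25 and 1.98 CPM, then 41.7, 0 and 9.05 CPM (adjusted p = 0.255). These genes, MpDHN1 and MpLEAL1, were picked after their values were seen. MpLEA-like49 (Mp6g11340) was the LEA gene with a call (1.08 ± 0.30, adjusted p = 0.0463), which was lost in the fit to the 6 libraries (adjusted p = 0.185) and without any single library but replicate 3 of 48 h (adjusted p from 0.0687 to 0.231). Without replicate 1 of 48 h the median of the abscisic acid and drought list was 0.47 with 51 positive members. Without replicate 2 or 3 of 48 h it was 1.47 and 1.34. The fit to the 6 libraries tested only 62 of the 71 members, with a median of 0.39 and 48 positive. That median covers fewer genes and is not comparable with the others.

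**Figure D3:**
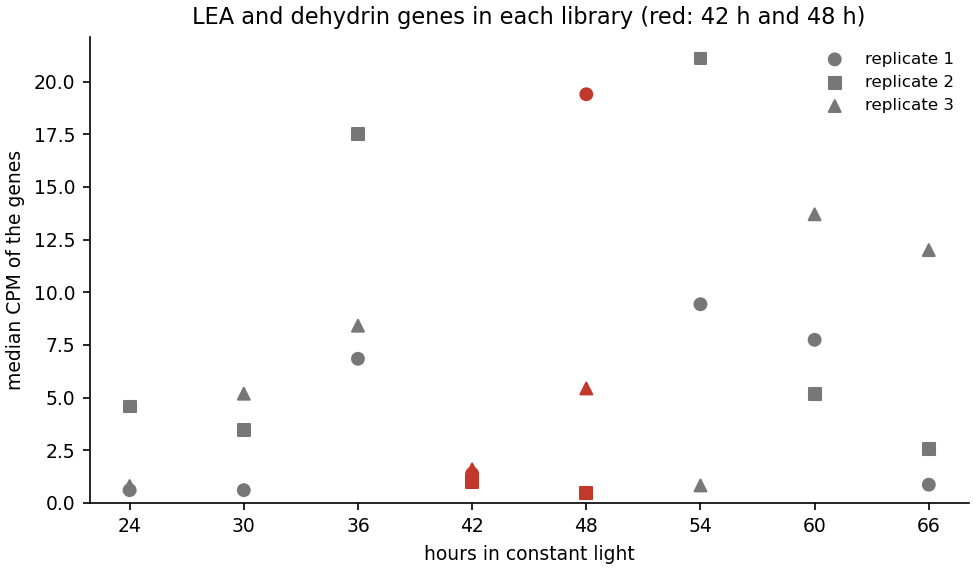
Median level of the 63 tested LEA and dehydrin genes in each of the 24 libraries, in CPM, against hours in constant light. Circles, squares and triangles are replicates 1, 2 and 3, and red marks 42 h and 48 h. Replicate 1 of 48 h, at 19.4 CPM, is above and replicate 2, at 0.473 CPM, below the libraries of 42 h, and the libraries of 54 h spread from 0.825 to 21.1 CPM.

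Lists with no called member are given for completeness, since at 3.46% called over all tested genes a count of 0 is close to the background for lists of these sizes. They included auxin (0 of 16, changes from -0.26 to 0.29), ethylene (0 of 8), autophagy (0 of 21, of which 19 were positive), core histones (0 of 24), the MCM genes of DNA replication (0 of 9) and the Calvin cycle (0 of 5). Expansins (0 of 30), plasma membrane proton pumps (0 of 17) and cellulose synthases (0 of 10) had none either. Heat shock factors and chaperones had 0 of 6, with summed levels of 929 to 1528 CPM at 42 h and 1229 to 1362 CPM at 48 h.

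Whether the step returns a day away was asked in libraries that the comparison did not use. Counted in hours modulo 24, 24 h has the phase of 48 h and 66 h has that of 42 h, so 24 h against 66 h compares the same phases in 6 other libraries. These lie 42 h apart rather than 6 h, and a drift between days enters with the opposite sign. The contrast called 4631 genes (32.1%), 2228 higher at 24 h (15.5%) and 2403 lower (16.7%). Of the 388 genes that rose from 42 h to 48 h, 285 (73.5%) were also called higher at 24 h than at 66 h, 16 (4.12%) were called lower and 87 were not called. Their median change there was 0.62, against 0.61 for 48 h and 42 h. Of the 111 genes that fell, 77 (69.4%) were called lower at 24 h, 8 (7.21%) higher and 26 not, with a median of -0.66 against -0.56.

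MpSIG5 differed by 1.59 between 24 h and 66 h, MpPPR_73 by 1.32, MpDET1 by 1.17, MpCDF by 1.23 and MpDIR27 by 2.33, and these were called. Other genes that rose from 42 h to 48 h were not called there. Examples were MpPAL8 (0.29, adjusted p = 0.311), MpDIR22 (0.4, adjusted p = 0.207) and MpLOG (0.04, adjusted p = 0.822). The lipoxygenase genes fell further there, by 2.05 for MpLOX14 and 5.23 for MpLOX16 on the log2 scale. The difference between the contrasts was itself called for 2436 genes (16.9%). It was called for MpLOX14 (adjusted p = 0.000857), MpLOX16 (adjusted p = 0.00355) and MpBBX1, whose rise was 1.12 for 24 h against 66 h (adjusted p of the difference 0.00431). MpKOL1 was not called between 24 h and 66 h (0.31, adjusted p = 0.0709) and the contrasts differed (adjusted p = 0.000355). In the polyphenol oxidase genes MpPPO55 and MpPPO14 the direction was the opposite, with 24 h higher by 0.95 and 1.15 (adjusted p = 1.45e-05 and 8.84e-06). Of the 42 polyphenol oxidases 14 were called higher at 24 h and 2 lower, and of the 119 class III peroxidases 41 and 10. These leans were opposite to those from 42 h to 48 h. The jasmonate and oxylipin list, with 2 of 17 higher and 5 lower, leaned the same way in both. Over all tested genes 15.5% were called higher and 16.7% lower. MpBZIP9 and MpR2R3-MYB4, which rose from 42 h to 48 h, were lower at 24 h than at 66 h by 1.03 and 0.60 (adjusted p = 2.39e-05 and 9.99e-06). Leaving out single libraries gave 1584 (without replicate 1 of 42 h) to 3166 genes (without replicate 2 of 42 h) for the difference.

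**Figure D4:**
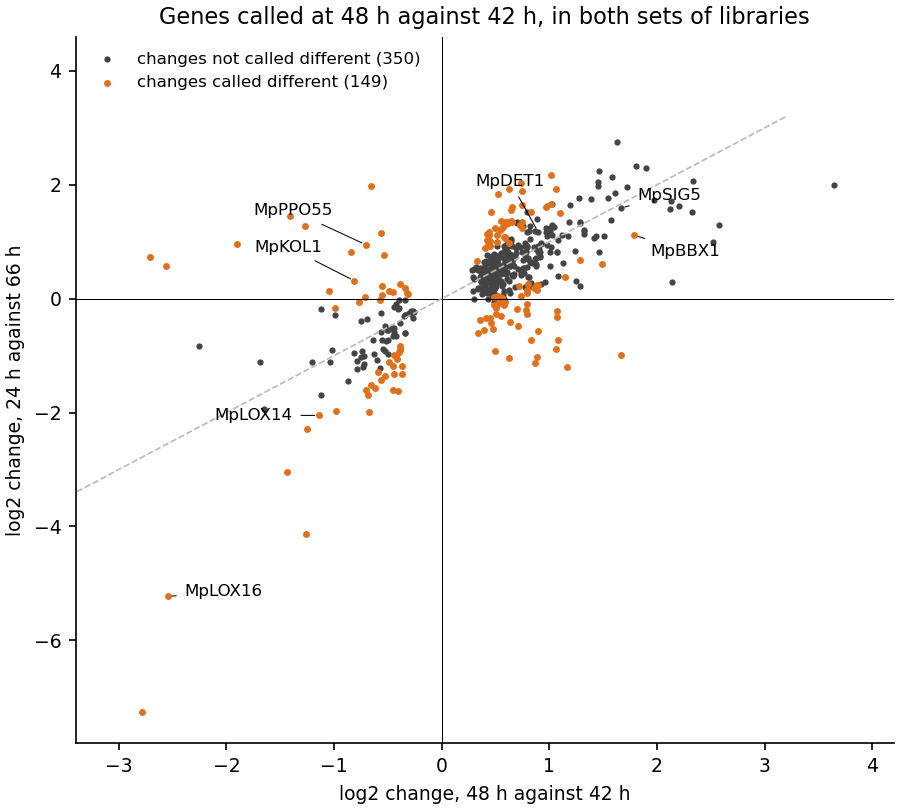
Changes of the 499 genes called between 42 h and 48 h. The x axis is the log2 change of 48 h against 42 h, the y axis that of 24 h against 66 h in other libraries, and the dashed line marks equal changes. Orange points are genes whose changes were called different, and 348 of the 388 genes that rose have a positive change on the y axis, which ranges from -7.26 to 2.75.

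The place of the step in the day was also described from the 18 libraries of the other 6 times. Of the genes that rose, 193 (49.7%) had their highest mean of these times at 24 h and 141 (36.3%) at 54 h, against 25.4% and 11.2% of all tested genes. Their lowest mean lay at 36 h in 279 (71.9%), against 13.7% of all tested genes. Of the genes that fell, 76 (68.5%) were lowest at 24 h and 59 (53.2%) highest at 36 h, against 26.8% and 13.1%. The means of MpDET1 at 36, 42, 48 and 54 h were 46.8 ± 1.95, 69.5 ± 5.29, 129 ± 14.5 and 111 ± 3.62 CPM (SD, n = 3). MpBBX1 reached its lowest mean at 42 h, 9.59 ± 1.27 CPM, and had means of 33 ± 4.5 and 80.4 ± 2.94 CPM at 48 and 54 h. MpSIG5 was low at 36 h (11.5 ± 1.02 CPM) and 42 h (13.2 ± 0.459 CPM) and high at 48 h (41.7 ± 5.46 CPM) and 54 h (47.3 ± 3.54 CPM).

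**Figure D5:**
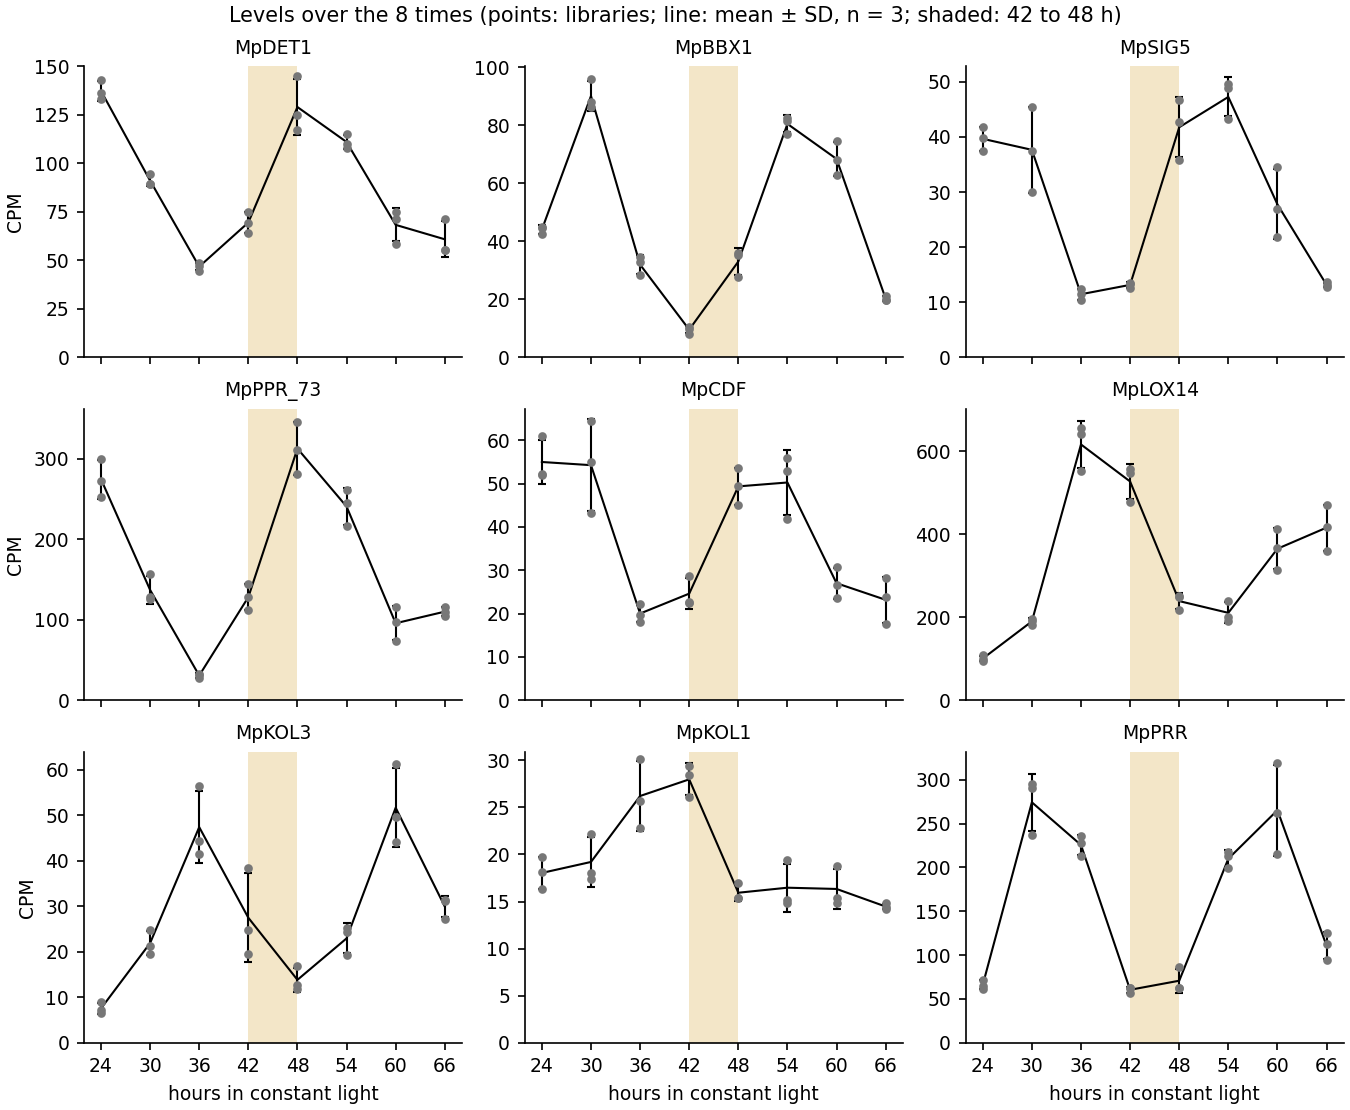
Levels of 9 genes over the 8 times in constant light, in CPM, with grey points for libraries, a line through the means and bars of 1 SD (n = 3); the step from 42 h to 48 h is shaded. MpDET1, MpSIG5, MpPPR_73 and MpCDF climb across the shaded step, MpLOX14 and MpKOL1 drop, and MpPRR is low at both ends of it.

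The step was then set against other steps of the series by testing the difference between them. Against the mean of 30 h to 36 h and 54 h to 60 h, the steps 12 h away, the change differed for 1421 genes (9.86%), 801 with the larger value from 42 h to 48 h and 620 with the smaller. Against the step before it, from 36 h to 42 h, 79 genes differed (0.548%), 70 of them upward. MpBBX1 had the largest such difference among genes with a symbol, 3.53 ± 0.20 (adjusted p = 6.13e-10), with means of 32, 9.59 and 33 CPM at 36, 42 and 48 h. MpPRR differed by 2.12 ± 0.25 (adjusted p = 5.87e-05), MpSIG5 by 1.46 ± 0.26 (adjusted p = 0.00875) and MpABA1 by 1.15 ± 0.19 (adjusted p = 0.003), and MpLOX14 differed by -0.92 ± 0.20 (adjusted p = 0.0308).

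Against the step after it, from 48 h to 54 h, 91 genes differed (0.631%), 62 upward and 29 downward. MpPPR_73 differed by 1.66 ± 0.23 (adjusted p = 0.000719), MpSIG5 by 1.48 ± 0.24 (adjusted p = 0.00406) and MpDET1 by 1.11 ± 0.17 (adjusted p = 0.00266). MpKOL3 (-1.71 ± 0.36, adjusted p = 0.0264), MpPRR (-1.34 ± 0.25, adjusted p = 0.00987) and MpLOX14 (-0.96 ± 0.21, adjusted p = 0.0271) differed the other way. The comparisons with neighbouring steps share libraries with the step itself, and their counts varied with single libraries, 39 (without replicate 1 of 42 h) to 84 genes for the step before and 30 (without replicate 2 or 3 of 48 h) to 122 for the step after. The 3.46% of genes called from 42 h to 48 h stand beside 4.43% for 24 h to 30 h, 5.35% for 30 h to 36 h, 1.73% for 36 h to 42 h, 0.208% for 48 h to 54 h, 1.63% for 54 h to 60 h and 1.33% for 60 h to 66 h.

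Called genes lay on each of the 8 numbered chromosomes, from 2.2% of the tested genes of chromosome 3 to 4.37% of those of chromosome 7, and 1 of 61 tested V chromosome genes was called. In 37 of 14404 pairs of tested genes with neighbouring identifiers both were called in the same direction, 35 pairs higher and 2 lower, and in 4 pairs in opposite directions. Mp1g10620 and the identifier before it, MpEXL1 and MpEXL3, and MpPPR_73 and MpPOD169 were such pairs, and neighbours may share reads where genes overlap.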

How the data were processed

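The authors deposited whole-number counts per gene, not normalized, for 20574 genes in 24 libraries. Per the labels' protocols, stranded libraries were made after poly(A) selection from 100 ng of total RNA. Which aligner, counting program, strand setting and build were used is not given in the sources used here, so overlapping genes, antisense genes and near-identical family members may share reads.

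Symbols were taken from RefSeq (assembly MpTak2_v7.1) by matching the digits of each locus tag (17641 identifiers matched, 3091 with a symbol). Genes renumbered between annotation versions would be misnamed.

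The tests used edgeR 4.0.16 under R 4.3.3. With filterByExpr at a minimum count of 10, 14414 genes were tested and 6160 were not. TMM factors scaled the libraries, and quasi-likelihood F-tests were run with 1 mean per time over all 24 libraries, with Benjamini-Hochberg adjustment over all tested genes and a threshold of 0.05. The code was tested on simulated data. DESeq2 1.42.0 and limma 3.58.1 (voom), other scaling and filters, fewer libraries, a replicate block and single libraries left out were tried as alternatives. The 6 totals of 19271096 to 27061982 counts limit the precision of low genes.

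The 50 gene lists, matched by symbol, and the comparison itself were chosen with earlier results of these data known. No set test was run. Named genes were all tested core clock, light signalling and photoreceptor genes, the 12 largest called rises and falls with a symbol, at least 5 CPM and non-overlapping libraries, and up to 3 called members of every other list. Also named were under the same limits on level and overlap, the 2 largest rises and falls without a symbol and the 5 genes a direction with the smallest p that were also called for 24 h against 66 h. This gave 79 genes, 58 of them called. No sequences are shown.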

Additional observations from a re-analysis of the deposited data

Results flagged for a closer look

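The change from 42 h to 48 h differed from that between 66 h and 24 h, the same phases in other libraries, for 2436 genes (edgeR adjusted p under 0.05 for the difference). The values below are the log2 change of 48 h against 42 h minus that of 24 h against 66 h, for the 28 named genes with such a call.

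The difference was positive for MpLOX16 (2.69) and MpLOX14 (0.91), MpKOL3 (0.99), Mp3g24880 (4.47) and Mp2g06690 (1.61), which all fell less from 42 h to 48 h. It was also positive for the clock genes MpPRR (0.97), MpTOC1 (0.63) and MpGARP7 (0.59) and for the light signalling genes MpBBX1 (0.67) and MpBHLH6 (0.69). Among the other genes it was positive for MpBZIP9 (1.66), MpLEA-like49 (1.81), MpPOD6 (1.46), MpR2R3-MYB4 (0.93), MpPPR_44 (0.88), MpNAC7 (0.68), Mp5g08580 (0.6) and MpLOG (0.48).

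The difference was negative for the diterpenoid genes MpKAOL2 (-1.18), MpKOL1 (-1.13) and MpKAOL1 (-0.83) and for the polyphenol oxidase genes MpPPO14 (-1.71) and MpPPO55 (-1.66). It was also negative for MpPOD160 (-2.86), MpNBS-LRR15 (-1.66), MpERF2 (-0.74), Mp5g12930 (-0.86) and Mp4g06660 (-0.4). The last 2 rose in both contrasts. Whether a drift between the days, which enters 24 h against 66 h, has a part in these values was not tested.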

How the results depend on the processing

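The 499 genes called between 42 h and 48 h were 128 in the fit to the 6 libraries, 245 at an adjusted p under 0.01, 261 at 1.5 fold or more, 730 with DESeq2, 485 with limma-voom, and 287 to 581 with single libraries left out. RLE factors gave 488, with 81.8% of them higher. Deviations from the time means were nearly uncorrelated between 42 h and 48 h libraries of the same replicate number (-0.034, 0.006 and -0.017). Between libraries of unlike numbers they correlated at -0.079 to 0.094. These values cannot show whether the samples were paired. With replicate numbers as a block the count was 473 over all libraries and 143 over the 6. For 24 h against 66 h the count was 2375 at 1.5 fold or more and 3696 to 4632 with libraries left out. The difference between these contrasts gave 1549 genes with those times alone, 1093 at 0.01 and 1584 to 3166. The steps 12 h away gave 869 at 0.01 and 1184 to 1488. For the step before, the counts were 21 with those times alone, 179 with DESeq2, 33 at 0.01 and 39 to 84. For the step after they were 16, 233, 28 and 30 to 122. Of the 58 named calls 24 held in every setting. The fit to the 6 libraries lost 29, the replicate block over the 6 lost 28 and leaving out a library lost 24. With limma-voom 3 were lost and with DESeq2 0, and no direction reversed in a call. MpSMR, MpPPO55 and Mp1g22640 were lost only with the block over the 6 (adjusted p = 0.0668, 0.0514 and 0.0575). The block over all libraries lost MpPOD6, MpPPO14 and MpRLK-Pelle_L-LEC24. Chosen after seeing the data were the refits of single gene lists and a fit without the 3 libraries rich in MpVg01240. That fit, without replicate 3 of 24 h, 30 h and 66 h, called 516 genes. The cause of these differences was not tested. Genes with few counts had wide errors, such as MpLOX6 with an SE of 1.49.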

Other observations

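Among lists without a called member, values for 2 chosen after they were seen are given here, beside a median change of -0.02 and 6748 of 14414 positive over all tested genes. Expansin genes, for proteins that loosen cell walls, had a median of -0.17 with 9 of 30 positive, and 8 to 10 positive on leaving out single libraries. Autophagy genes had a median of 0.11 with 19 of 21 positive, but 12 (median 0.04) on leaving out replicate 2 of 48 h, and 14 or 15 when replicate 1 or 3 of 42 h was left out. For 24 h against 66 h, the same phases in other libraries, calls in both lists leaned the opposite way. There 11 of the 30 expansin genes were called higher and 2 lower, and 0 of the 21 autophagy genes higher and 15 lower. Over all tested genes the shares were 15.5% higher and 16.7% lower, and a drift between the days enters that contrast.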
